A study of Mus musculus with 4 samples.

Results

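The nuclear genes for subunits of respiratory chain complexes I to IV and of ATP synthase (complex V) were followed in mouse liver with and without the mitochondrial calcium uniporter gene Mcu, before and during regeneration. Members were chosen by gene symbol alone: Nduf symbols of the A, B, C, S and V series, Sdha to Sdhd, Uqcr, Cox4 to Cox8 and Atp5 symbols, without pseudogenes. This rule found 84 of the 19505 genes measured, 37 in complex I, 4 in complex II, 8 in complex III, 18 in complex IV and 17 in complex V. Each member had a single probe set. The symbols follow the array annotation, which lists Ndufa4 and Ndufa4l2 by their old complex I names although Ndufa4 is now regarded as a complex IV subunit, and which holds Cox7a2l, an assembly factor of supercomplexes, among the Cox7 symbols. None of the 13 protein genes of mitochondrial DNA was analysed here.

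The livers fell into 4 groups, each profiled on 1 array of RNA that the series text describes as pooled from 4 animals. The first was liver of Mcu knockdown mice 30 h after partial hepatectomy (KD 30 h), and the next was knockdown liver at 0 h (KD 0 h). The remaining groups were control liver at 30 h (WT 30 h) and control liver at 0 h (WT 0 h). All were male C57BL6J mice, and by the treatment protocol all carried floxed Mcu alleles, also the controls that the genotype label calls wild type. At 10 to 12 weeks of age they received AAV8-TBG-Cre (knockdown) or AAV8-TBG-Null (control littermates) by tail vein, and 70% of the liver was removed 5 weeks later. The TBG promoter is active in hepatocytes, so other liver cells keep the gene. The description labels go against the other labels: on every array they speak of ethanol-fed liver, and on the KD 30 h array they give 1 h after surgery, whereas its title and its time label give 30 h. The genotype label of the knockdown arrays also differs from their source name and from the treatment protocol, which name Mcu, so that the labels do not agree on the floxed gene. Groups follow the titles, and the measured Mcu level is given below.

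Respiratory complexes I to IV pass electrons from NADH and succinate to oxygen, and complexes I, III and IV pump protons out of the mitochondrial matrix as they do so. ATP synthase lets the protons return and makes ATP. Complex II is also the succinate dehydrogenase of the tricarboxylic acid cycle, and all of its subunits are nuclear, whereas the other complexes combine nuclear subunits with a few encoded by mitochondrial DNA. Calcium that enters through the uniporter stimulates several matrix dehydrogenases, and hepatocytes that grow back after hepatectomy depend on mitochondrial ATP.

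Promoters of respiratory subunit genes are known for binding sites of NRF1, of the ETS factor GABP, of YY1 and of estrogen-related receptors. RefSeq windows of GRCm38.p6 from 250 bases before to 50 bases after the start, 300 in all, were found for 69 members, 65 of them bright by the definition given with the levels below. Exact matches on both strands were counted over the 70 windows of these 65 bright members. The NRF1 core GCGCATGC lay in 14.3% of these windows, against 4.71% of the 10077 windows of all bright genes and 2.71% of all 32851 windows. The YY1 core AAGATGGC lay in 14.3%, against 4.16% of windows of bright genes and 2.75% of all windows. Of the 10 members with the YY1 core, 7 belonged to complex I and 3 to complex V. The ETS core CCGGAAG lay in 24.3%, against 16.6% of windows of bright genes and 8.86% of all. The estrogen-related receptor element TCAAGGTCA lay in 2.86%, which is 2 windows, against 0.318% of windows of bright genes and 0.423% of all. A match describes letters in a window and is not evidence of binding. Stretches of 100 bases upstream of the start are shown for Sdha, Sdhb and Sdhd of complex II, whose values are given in full. Also shown are the members with an NRF1 or ETS match there among those that differed at least 1.5-fold over time, and they were picked for that match. Ndufb5, Ndufb8, Ndufv2, Cox7a2 and Atp5pb passed 1.5-fold over time as well and hold neither the NRF1 nor the ETS core in their windows. Of these, Ndufb8 and Atp5pb hold the YY1 core. Ndufs1 and Cox6a2 also passed 1.5-fold over time, but no window was found for them. The stretches end at the base before the start, except that of Atp5e, which runs from base 148 to base 49 before it. Capitals mark an NRF1 or ETS match.

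Sdha (chr13:74350241-74350340, minus strand, no match): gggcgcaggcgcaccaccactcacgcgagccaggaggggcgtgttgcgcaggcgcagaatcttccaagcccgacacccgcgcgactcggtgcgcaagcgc
Sdhb (chr4:140961171-140961270, plus strand, NRF1): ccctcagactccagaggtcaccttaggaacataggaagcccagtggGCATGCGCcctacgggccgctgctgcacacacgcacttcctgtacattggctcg
Sdhd (chr9:50603850-50603949, minus strand, ETS): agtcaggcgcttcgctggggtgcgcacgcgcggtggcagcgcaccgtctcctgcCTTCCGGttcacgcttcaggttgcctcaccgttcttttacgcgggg
Atp5g2 (chr15:102671048-102671147, minus strand, NRF1, with overlapping matches on both strands): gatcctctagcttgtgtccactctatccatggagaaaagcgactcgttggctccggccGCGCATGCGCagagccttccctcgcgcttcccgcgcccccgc
Ndufa8 (chr2:36049339-36049438, minus strand, NRF1): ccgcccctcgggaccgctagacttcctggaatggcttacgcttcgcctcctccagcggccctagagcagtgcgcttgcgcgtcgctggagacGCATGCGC
Atp5e (chr2:174464150-174464249, minus strand, ETS): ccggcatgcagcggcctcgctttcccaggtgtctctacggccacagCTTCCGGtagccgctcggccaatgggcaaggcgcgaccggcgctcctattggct

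Values are log2 RMA levels per probe set, as the authors deposited them, and differences are log2 differences between arrays. A gene is called bright here when its 4-array mean reached the median over genes, 3.83, which held for 9759 genes. Of the members 79 were bright, and 60 of the 84 lay above percentile 90 of mean level. Probe sets differ in affinity, so this describes probe brightness and not relative amounts of mRNA. The 5 dim members, Cox6b2, Cox7a1, Cox7b2, Cox8b and Cox8c, are copies of complex IV subunits used in muscle, brown fat, testis or other tissues. A difference is counted as past the threshold at 1.5-fold among bright genes. With 1 array a group there was no replicate spread, no test was possible and no value carries an error.

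Pairs of arrays correlated with r between 0.953 and 0.974 over all probe sets. Mcu, the targeted gene, stood at 2.63 (KD 30 h), 2.83 (KD 0 h), 4.30 (WT 30 h) and 4.77 (WT 0 h), a log2 difference between knockdown and control liver of -1.67 at 30 h and -1.94 at 0 h. Hepatocyte markers averaged 11.20, 11.28, 11.26 and 11.23 over 7 genes in the same order of arrays, as the tissue label implies. Markers of Kupffer cells averaged 5.45, 5.71, 5.73 and 5.32 over 9 genes, those of sinusoidal endothelium 4.56, 5.14, 4.84 and 4.92 over 8, and those of stellate cells 5.19, 5.54, 5.36 and 5.33 over 7. Like many members, these lists were lower on the KD 30 h than on the KD 0 h array, and their part in the results was not tested. In bulk tissue, fewer cells of a type and less RNA per cell cannot be told apart. The design has no operated liver left whole, so in a difference between 30 h and 0 h the loss of liver cannot be told apart from the operation.

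The members were steady. Across the 4 arrays the range of a bright member had a median of 0.35 and ran from 0.08 (Ndufa2, an accessory subunit of complex I) to 1.10 (Ndufb8, of its membrane arm). None of the 79 differed by 2-fold in any of the 4 pairwise comparisons. By 1.5-fold, 13 of 79 (16.5%) differed in at least 1 comparison, against 47.9% of all bright genes and 39.0% of the 1950 genes above percentile 90. The SD of the differences over members was smaller than over bright genes in each pairwise comparison. It was 0.25 against 0.44 for knockdown and control liver at 30 h, 0.21 against 0.38 at 0 h, 0.27 against 0.54 for 30 h and 0 h in knockdown liver, and 0.31 against 0.59 for 30 h and 0 h in control liver. Over the genes above percentile 90 these SDs were 0.28, 0.27, 0.63 and 0.61.

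**Figure D1:**
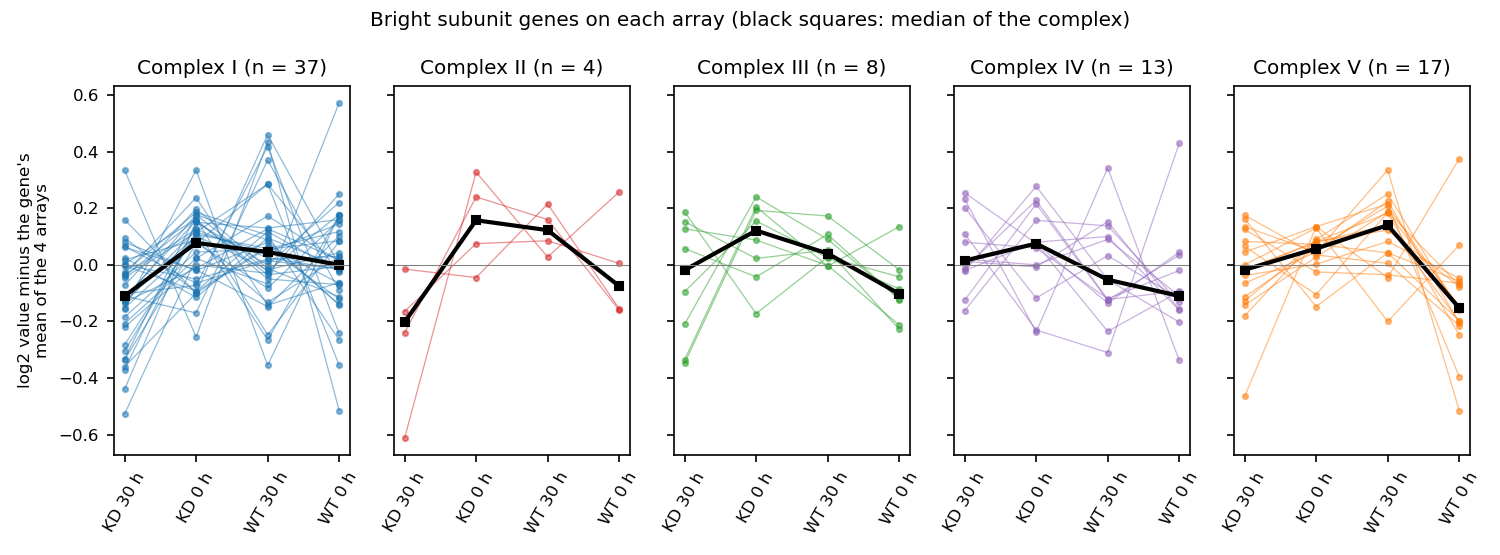
Log2 level of each of the 79 bright members on the KD 30 h, KD 0 h, WT 30 h and WT 0 h arrays, after subtraction of the member's own mean over the 4 arrays, in a panel for each complex. Each line is a member and black squares are the median of the complex, and Ndufb8, with a range of 1.10, spans the widest interval among bright members.

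Between knockdown and control liver at 30 h, the bright members had a median difference of -0.12, with 52 of 79 lower in knockdown liver, 25 higher and 2 equal. All bright genes had a median of -0.11 with 61.2% lower and 37.8% higher, and genes above percentile 90 had a median of -0.16 with 72.7% lower, so the members did not stand apart from their background. The sign of the members' median depended on the scaling: it was 0.01 after centring on bright genes, 0 after quantile normalization and 0.03 after cyclic loess. Past 1.5-fold, 3 members were lower, against 12.5% of bright genes, and 0 were higher, against 6.31%. These 3 were Ndufb3, Sdha and Ndufb10.

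At 0 h the members' median was 0.10, with 55 of 79 higher in knockdown liver and 22 lower. Of all bright genes 56.7% were higher and 42.2% lower, with a median of 0.06, and of genes above percentile 90, 65.8%, with a median of 0.11. After quantile and loess normalization the members' median was within 0.02 of 0 and negative. The complex IV copy Cox6a2 was the only bright member past 1.5-fold, and was lower in knockdown liver, against 4.49% of bright genes lower and 7.7% higher.

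Between 30 h and 0 h in knockdown liver, the members' median was -0.16, with 51 of 79 lower at 30 h and 28 higher. Bright genes had a median of -0.04 with 53.1% lower and 46.2% higher, and genes above percentile 90 had the same median and the same share. The members' median stayed negative under all 4 other scalings, between -0.19 and -0.09. Past 1.5-fold, Sdha, Atp5e and Ndufb5 were lower, against 12.0% of bright genes, and Ndufa8 was higher, against 9.12%.

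Between 30 h and 0 h in control liver, the median was 0.13, with 51 of 79 higher at 30 h and 28 lower. Of all bright genes 58.2% were higher and 40.8% lower, with a median of 0.10, and of genes above percentile 90, 68.5%, with a median of 0.22. The sign reversed with quantile (-0.13) and loess normalization (-0.10). Past 1.5-fold, 6 members were higher, against 17.5% of bright genes, and 2 were lower, against 8.05%. Ndufa8, Atp5g2, Cox7a2, Ndufs1, Ndufv2 and Atp5pb were higher, and Cox6a2 and Ndufb8 were lower.

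**Figure D2:**
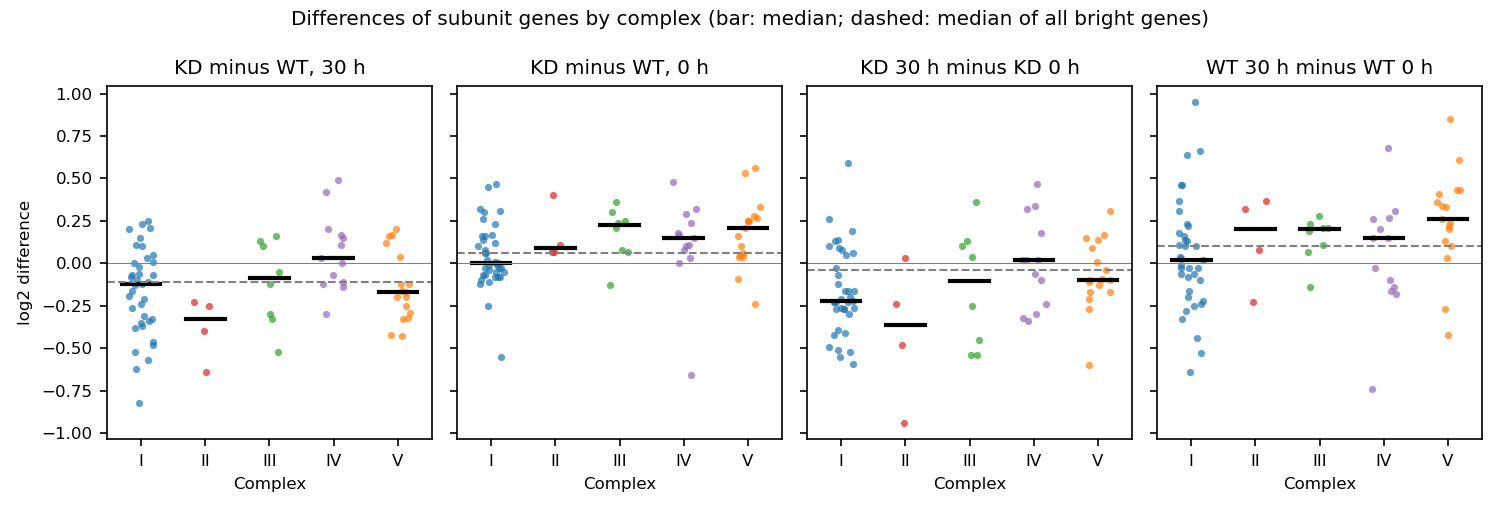
Log2 difference of every bright member in the pairwise comparisons, by complex, with a bar at the median of each complex and a dashed line at the median of all 9759 bright genes. In knockdown liver at 30 h against 0 h the members' median is -0.16 against -0.04 for bright genes; the median for control liver at 30 h against 0 h (0.13) and both medians for knockdown against control (-0.12 at 30 h and 0.10 at 0 h) lose or reverse their sign under some scalings.

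The response of knockdown liver minus that of control liver had a median of -0.23 over the members, with 57 of 79 below 0 and 22 above. Over bright genes the median was -0.18, with 63.2% below 0 and 36.1% above, and over genes above percentile 90 it was -0.26, with 78.1% below 0. After loess the median was 0.02. Past 1.5-fold, 12 members were lower (22.5% of bright genes) and 1 was higher (9.63%). The 12 became 2 with centring on bright genes, 1 with quantile normalization and 1 with loess. A lower level at 30 h in knockdown liver together with a higher level at 30 h in control liver held for 28 of 79 members, against 26.8% of bright genes. The opposite pattern held for 5, against 14.7%, and 23 members were lower in both and 23 higher in both. Opposite responses at least 1.5-fold apart, lower in knockdown liver, were found for 10 of 79 members, a smaller share than the 14.9% of bright genes. The reverse was found for Cox6a2 alone, against 7.54%.

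**Figure D3:**
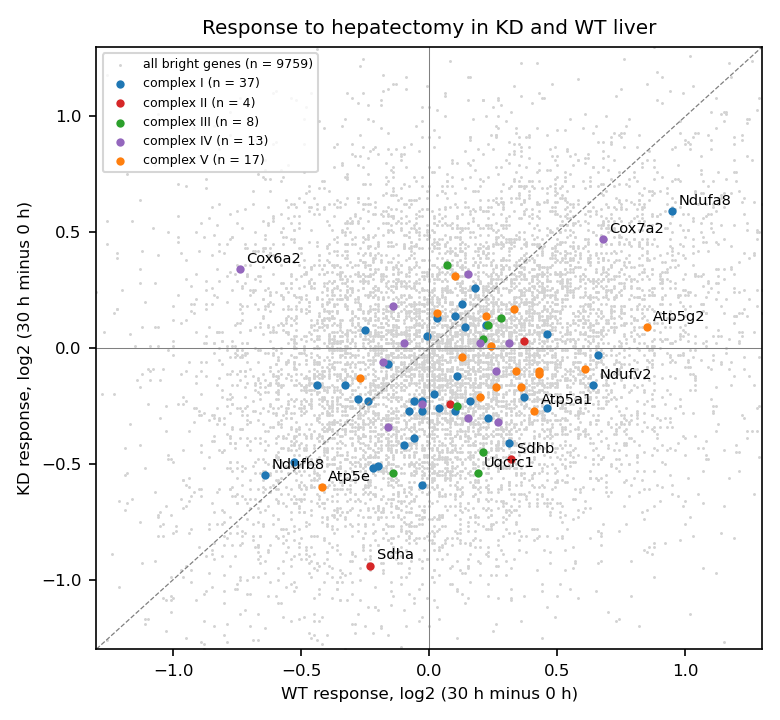
Each bright member's 30 h minus 0 h difference in knockdown liver (vertical) against the same in control liver (horizontal), in log2 units, over a cloud of all bright genes, of which 466 lie outside the axes. Sdha lies lowest for knockdown liver at -0.94, and Ndufa8 is highest on both axes, at 0.59 in knockdown and 0.95 in control liver.

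Complex II oxidises succinate and hands the electrons to coenzyme Q. Sdha, the flavoprotein that holds the catalytic site, stood at 6.03 on KD 30 h, 6.97 on KD 0 h, 6.67 on WT 30 h and 6.90 on WT 0 h. The KD 30 h array was below the other 3, which lay within 0.30 of each other. Sdha was 1.92-fold lower at 30 h than at 0 h in knockdown liver (log2 difference -0.94), and 3.41% of bright genes had a difference at or below this. The value was past 1.5-fold under all 4 other scalings. In control liver the 30 h difference was -0.23. Knockdown against control differed by -0.64 at 30 h (1.56-fold lower), which was past the threshold under 1 of the 4 other scalings, and by 0.07 at 0 h.

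Sdhb, the iron-sulphur subunit that carries the electrons onward, stood at 8.08 on KD 30 h, 8.56 on KD 0 h, 8.48 on WT 30 h and 8.16 on WT 0 h. It was lower at 30 h in knockdown liver by 0.48 and higher at 30 h in control liver by 0.32. The membrane anchor Sdhc stood at 6.41, 6.38, 6.64 and 6.27 in that order of arrays. The other anchor, Sdhd, stood at 7.62, 7.86, 7.87 and 7.79. Against control liver, knockdown liver had lower values of all 4 subunits at 30 h (median -0.325, between -0.385 and -0.1425 under the other scalings) and higher at 0 h (median 0.09, between 0.0094 and 0.07). With quantile and with loess normalization 2 of the 4 were higher at 0 h. Of all bright genes 61.2% were lower at 30 h and 56.7% higher at 0 h, and of genes above percentile 90, 72.7% and 65.8%. Over the 4 subunits the median 30 h difference was -0.36 in knockdown liver, and 0.20 in control liver, where it turned negative with quantile and loess normalization. Of the 4 assembly factors of complex II, 3 were lower in knockdown liver at 30 h and all 4 were higher at 0 h. The medians of -0.39 and 0.47 kept their sign under all scalings, but they include the dim gene Sdhaf4. Over the 3 bright factors they were -0.34 and 0.34. Sdhaf2, which attaches the flavin to Sdha, stood at 5.32 on KD 30 h, 6.12 on KD 0 h, 5.85 on WT 30 h and 5.52 on WT 0 h.

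Complex I takes electrons from NADH in its N module, passes them through the Q module to coenzyme Q, and pumps protons in its membrane arm. Over its 37 bright members the median 30 h difference was -0.22 in knockdown liver, with 27 lower, against 53.1% of bright genes. The sign of this median held under all 4 scalings (-0.25 to -0.16). The corresponding median in control liver was 0.02, with 19 higher and 18 lower, and its sign changed under 3 scalings. Knockdown against control differed by -0.12 at 30 h, a sign that changed with centring on bright genes, and by 0.00 at 0 h. At 30 h 26 of 37 were lower, against 61.2% of bright genes and 72.7% of genes above percentile 90. The 26 became 19 with quantile and with loess normalization. On 16 of the 37 members the KD 30 h array was the lowest of the 4, against 30.5% of all bright genes.

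The 6 measured Q module subunits were all lower at 30 h than at 0 h in knockdown liver, by between 0.39 and 0.16 on the log2 scale, and none reached 1.5-fold. In control liver 4 of the 6 were lower at 30 h as well, with a median of -0.06 against -0.245 in knockdown liver. Among the 6 are the core subunits Ndufs3, Ndufs7 and Ndufs8. Ndufs3 stood at 8.63 on KD 30 h, 8.89 on KD 0 h, 8.79 on WT 30 h and 8.75 on WT 0 h. Ndufs7, which holds the last iron-sulphur cluster before coenzyme Q, stood at 6.90, 7.20, 7.11 and 6.88, and Ndufs8 at 8.01, 8.17, 7.76 and 8.09. Ndufa9, an accessory subunit at the junction with the membrane arm, was lowest on KD 30 h, with 6.71 against 7.10 on KD 0 h, 7.05 on WT 30 h and 7.11 on WT 0 h.

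In the N module, the core subunits did not move alike. Ndufv1, which binds NADH, stood at 8.39 on KD 30 h, 8.90 on KD 0 h, 8.70 on WT 30 h and 8.90 on WT 0 h, lower at 30 h in both genotypes. Ndufv2, its iron-sulphur partner, stood at 6.95, 7.11, 7.28 and 6.64, 1.56-fold higher at 30 h than at 0 h in control liver and 0.16 lower in knockdown liver. Ndufs1, the largest core subunit, showed a like order with 5.91, 5.94, 6.43 and 5.77, and was 1.58-fold higher at 30 h in control liver. For Ndufv2 and Ndufs1 the WT 0 h array was the lowest and the WT 30 h array the highest. Their 1.5-fold calls held under 1 of the 4 other scalings. Ndufv3, a small accessory subunit, was lower at 30 h by 0.49 in knockdown liver and by 0.53 in control liver.

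The membrane arm held the members with the widest differences. Ndufb3 stood at 4.47 on KD 30 h, 4.73 on KD 0 h, 5.29 on WT 30 h and 4.83 on WT 0 h. The WT 30 h array stood above the other 3, and knockdown liver was 1.77-fold lower at 30 h (log2 difference -0.82). Under the 4 other scalings this difference lay between -0.88 and -0.69, past 1.5-fold in each. Its level is nearer to the bright limit than that of most members. Ndufb10 stood at 5.96, 6.37, 6.58 and 6.27, again lowest on KD 30 h and highest on WT 30 h, and was 1.54-fold lower in knockdown liver at 30 h, a call kept by 1 of 4 scalings.

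Ndufa8, a subunit whose cysteines are oxidised on import into the intermembrane space, stood at 7.91 on KD 30 h, 7.32 on KD 0 h, 8.01 on WT 30 h and 7.06 on WT 0 h. Both 30 h arrays were above both 0 h arrays, with 1.51-fold higher levels at 30 h in knockdown liver and 1.93-fold in control liver. The control call held under all 4 scalings and the knockdown call under 3. Ndufb8 went the other way in both genotypes, with 6.11, 6.66, 6.57 and 7.21, lower at 30 h by 0.55 in knockdown liver and by 0.64 in control liver, where it was past 1.5-fold under every scaling. The KD 0 h array also lay 0.55 below WT 0 h. Ndufb5 stood at 6.77, 7.36, 7.34 and 7.37, so that the KD 30 h array alone was low. Its 1.51-fold difference from KD 0 h was past the threshold under 1 of the 4 other scalings. Ndufb4 and Ndufb4b are near-identical copies whose probes may not tell them apart, and neither passed 1.5-fold.

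Complex III passes electrons from reduced coenzyme Q to cytochrome c. None of its 8 measured members reached 1.5-fold in a pairwise comparison. The Rieske iron-sulphur protein Uqcrfs1 stood at 7.92 on KD 30 h, 8.37 on KD 0 h, 8.22 on WT 30 h and 8.01 on WT 0 h. The core protein Uqcrc1 had a like order, with 7.07, 7.61, 7.59 and 7.40. In both, the KD 30 h array was lowest and the KD 0 h array highest. The small subunit Uqcr11 was also lowest on KD 30 h, at 5.90, with 6.44 on KD 0 h, 6.23 on WT 30 h and 6.37 on WT 0 h. Uqcrh, the acidic hinge protein that meets cytochrome c, was instead highest on KD 30 h, at 9.68, with 9.32 on KD 0 h, 9.52 on WT 30 h and 9.45 on WT 0 h. At 30 h 5 of 8 were lower in knockdown liver than in controls, against 61.2% of bright genes. The median of -0.085 changed sign under 3 scalings. At 0 h 7 of 8 were higher, against 56.7% of bright genes, and 5 with quantile or with loess normalization. The median of 0.225 stayed positive under all 4 scalings. In control liver 7 of 8 were higher at 30 h than at 0 h, against 58.2% of bright genes. With quantile and with loess normalization 1 of 8 was higher, and the median of 0.20 changed sign.

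Complex IV, cytochrome c oxidase, reduces oxygen to water. Its 13 bright members had median differences near 0 in knockdown liver between 30 h and 0 h (0.02, of changing sign under 3 scalings) and between knockdown and control liver at 30 h (0.03, of changing sign under 1). At 0 h 11 of 13 were higher in knockdown liver, against 56.7% of bright genes and 65.8% of genes above percentile 90. The 11 became 8 with quantile normalization and 7 with loess. The median of 0.15 stayed positive under all scalings, down to 0.0225. The liver form Cox8a was furthest above control liver at 0 h, with 8.87 on KD 30 h, 9.17 on KD 0 h, 8.84 on WT 30 h and 8.69 on WT 0 h. Cox5b, a zinc-binding subunit, stood at 8.18, 8.50, 8.48 and 8.21, lower at 30 h in knockdown liver by 0.32 and higher at 30 h in control liver by 0.27. Cox7a2, the liver form of its subunit, was higher on both 30 h arrays, with 8.70 on KD 30 h and 8.81 on WT 30 h, against 8.23 on KD 0 h and 8.13 on WT 0 h. The 1.60-fold difference in control liver passed the threshold under 1 of 4 other scalings.

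The ubiquitous and the tissue-restricted copies of complex IV subunits were set side by side. Cox4i1 stood at 8.74 on KD 30 h, 9.08 on KD 0 h, 8.74 on WT 30 h and 8.90 on WT 0 h, and Cox4i2, the copy of hypoxic and lung tissue, at 4.50, 4.32, 4.01 and 4.15. Cox6a1 stood at 9.42, 9.66, 9.31 and 9.34, whereas the striated muscle copy Cox6a2 stood at 4.86, 4.52, 4.44 and 5.18. Cox6a2 was 1.67-fold lower at 30 h than at 0 h in control liver, 0.34 higher on the log2 scale in knockdown liver, and 1.58-fold lower in knockdown than in control liver at 0 h. Its WT 0 h array stood above the other 3, and both calls held under all 4 scalings. Cox8b, the muscle and brown fat copy, showed the same excess on WT 0 h at dim levels, with 2.61 on KD 30 h, 2.55 on KD 0 h, 2.19 on WT 30 h and 3.57 on WT 0 h. Markers of striated muscle averaged 3.59, 3.58, 3.56 and 3.46 over 8 genes on these arrays, of which 3 were bright. The 4 measured erythroid markers averaged 4.33, 4.66, 4.16 and 5.06, highest on WT 0 h. The 3 brown fat markers averaged 4.27, 5.19, 4.16 and 5.41, also highest on WT 0 h. Among them Ucp1 lay at 2.01, 2.09, 2.06 and 2.35, Cidea at 3.45, 3.09, 3.29 and 3.60, and Elovl3, which hepatocytes also express, at 7.34, 10.39, 7.14 and 10.29. The part of muscle, erythroid or brown fat cells in the Cox6a2 and Cox8b levels was not tested. Cox7a1, Cox7b2, Cox6b2 and Cox8c lay between 1.91 and 4.10 on every array.

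All 17 members of complex V were bright. The WT 30 h array was the highest of the 4 for 11 of them (64.7%), against 35.1% of bright genes and 45.1% of genes above percentile 90. The WT 0 h array was the lowest for 11, against 30.5% and 39.0%. Control liver was higher at 30 h than at 0 h for 15 of 17, against 58.2% and 68.5%, with a median of 0.26. Knockdown liver had a median 30 h difference of -0.10, with 11 of 17 lower, against 53.1% of bright genes. Between knockdown and control the median was -0.17 at 30 h, with 12 of 17 lower, against 61.2% of bright genes. At 0 h it was 0.21, with 15 of 17 higher, against 56.7%. No sign of these medians changed under any of the 4 other scalings, but all shrank. The control median fell to 0.03, the knockdown median to -0.04, and the differences to -0.04 at 30 h and 0.05 at 0 h. The 15 members higher at 30 h in control liver became 9 with quantile normalization and 10 with loess. The 15 higher in knockdown liver at 0 h became 11 with each. The difference of responses was -0.41 over complex V, between -0.45 and -0.18 under the other scalings, against -0.18 over bright genes and -0.26 over genes above percentile 90.

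Atp5a1, the alpha subunit of the F1 head, stood at 9.23 on KD 30 h, 9.50 on KD 0 h, 9.66 on WT 30 h and 9.25 on WT 0 h. The catalytic beta subunit Atp5b stood at 9.69, 9.86, 10.02 and 9.76, and the rotor subunit Atp5c1 at 9.13, 9.34, 9.38 and 9.18. In all of these the KD 30 h array was lowest and the WT 30 h array highest, within less than 0.5 on the log2 scale. Atp5d, also of the F1 head, was instead highest on KD 30 h, with 8.34, 8.20, 8.17 and 7.95 in that order of arrays. Atp5e, the smallest F1 subunit, was lower at 30 h in both genotypes. It stood at 6.17 on KD 30 h and 6.59 on WT 30 h, against 6.77 on KD 0 h and 7.01 on WT 0 h. Its 1.52-fold difference in knockdown liver passed the threshold under 1 of 4 scalings.

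The c ring, which turns as protons pass, is made of an identical protein from 3 genes. Atp5g2 stood at 8.44 on KD 30 h, 8.35 on KD 0 h, 8.64 on WT 30 h and 7.79 on WT 0 h. The WT 0 h array was the low one, and control liver was higher at 30 h by 0.85 on the log2 scale (1.80-fold), whereas knockdown liver differed by 0.09. The control difference lay between 0.59 and 0.86 under the other scalings, past 1.5-fold in each. Atp5g1 stood at 9.99, 9.82, 10.11 and 9.78, and Atp5g3 at 8.40, 8.51, 8.69 and 8.26. All 3 genes were lowest on WT 0 h and highest on WT 30 h. The same order of these control arrays held for Atp5pb, the b subunit of the peripheral stalk, with 8.45, 8.54, 8.62 and 8.01 and a 1.53-fold difference in control liver, which passed the threshold under 1 of the 4 other scalings. Atp5o, the OSCP subunit that joins the stalk to the head, barely moved, with 7.96, 8.0, 8.08 and 7.95.

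**Figure D4:**
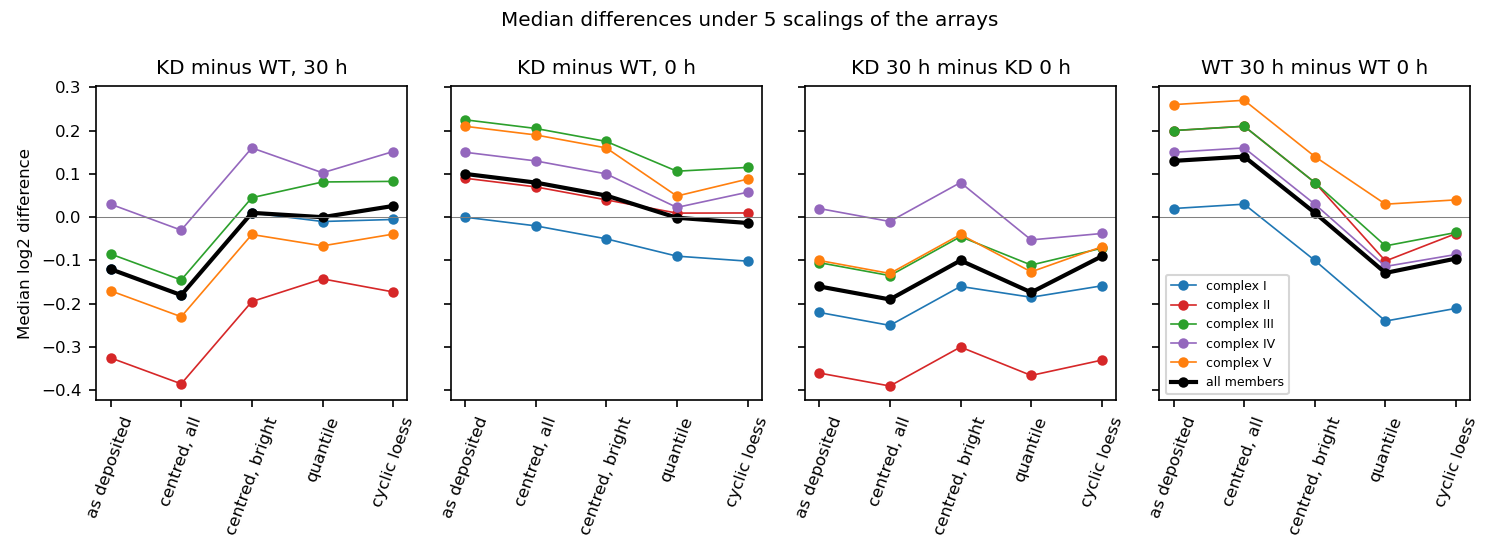
Median log2 difference over the bright members of each complex (colours) and over all of them (black), as deposited and under the 4 other scalings, in a panel for each comparison. Complex V keeps the sign of its median in every comparison, with a 30 h difference between knockdown and control of -0.23 to -0.04 under the other scalings; complexes I, III and IV change sign at 30 h in at least 1 scaling, and complex II changes sign in the control liver comparison alone.

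Factors that assemble the complexes were counted from fixed lists. Knockdown against control liver at 30 h, 12 of 16 measured complex I factors were lower (median -0.31), and Ndufaf4, an early assembly factor, stood at 6.57 on KD 30 h, 6.40 on KD 0 h, 7.28 on WT 30 h and 6.28 on WT 0 h. All 7 measured complex III factors with cytochrome c1 were lower, with a median of -0.31 and none past 1.5-fold. Of 20 complex IV factors 14 were lower (median -0.20), 7 of them past 1.5-fold, and 2 were higher past it. Of all bright genes 61.2% were lower in this comparison, 12.5% were lower past 1.5-fold, and 6.31% were higher past it. These medians stayed negative under all 4 scalings. Coa7 had the widest difference, with 4.55 on KD 30 h, 4.81 on KD 0 h, 5.73 on WT 30 h and 4.45 on WT 0 h. Cox14, which binds newly made Cox1, was lowest on KD 30 h, with 3.83 against 4.85 on KD 0 h, 4.72 on WT 30 h and 4.83 on WT 0 h. Sco1, a copper chaperone of complex IV, stood at 4.01, 4.79, 4.89 and 4.48. Of the 7 complex V factors, 5 were lower, with a median of -0.16. Atp5md and Atp5mpl, which are also members above, are among these 7.

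At 30 h 12 of 13 measured enzymes of the tricarboxylic acid cycle were lower in knockdown liver than in controls. Of all bright genes 61.2% were lower, and of genes above percentile 90, 72.7%, with medians of -0.11 and -0.16. The enzymes had a median of -0.21 that stayed negative under all scalings, and none was past 1.5-fold. Idh3a, the catalytic subunit of NAD-dependent isocitrate dehydrogenase, came nearest, with 6.27 on KD 30 h, 5.77 on KD 0 h, 6.85 on WT 30 h and 5.79 on WT 0 h. The 4 adenine nucleotide and phosphate carriers had a median of -0.05, which changed sign under 3 scalings.

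Ppargc1a, Coq8a and Coq10b differed more over time than any bright subunit. Ppargc1a, the coactivator that drives mitochondrial biogenesis, stood at 6.29 on KD 30 h and 6.65 on WT 30 h, against 4.86 on KD 0 h and 4.88 on WT 0 h, so that its 30 h difference was 1.43 in knockdown and 1.77 in control liver. Tfb2m, a mitochondrial transcription factor, stood at 4.39 on KD 30 h, 5.31 on KD 0 h, 4.94 on WT 30 h and 5.25 on WT 0 h. Ppara, the receptor that controls fatty acid oxidation in liver, stood at 5.51, 6.16, 5.88 and 6.16. Both were lower at 30 h than at 0 h in either genotype. Nrf1 stood at 3.98, 4.15, 4.96 and 4.35, and was lower by 0.98 in knockdown liver at 30 h. Tfb1m, which methylates mitochondrial ribosomal RNA, had the same order, with 4.85, 5.19, 5.76 and 5.28. For both, the WT 30 h array was the highest of the 4. Polrmt, the mitochondrial RNA polymerase, was higher on both knockdown arrays, with 4.06 on KD 30 h and 4.64 on KD 0 h. It stood at 3.35 on WT 30 h and 3.34 on WT 0 h, and its 4-array mean of 3.85 is just above the bright limit of 3.83. Over the 19 measured regulators, 12 were lower in knockdown liver at 30 h, against 61.2% of bright genes. The median of the regulators was -0.16, and its sign changed under 2 scalings.

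Among 15 genes for cytochrome c and coenzyme Q synthesis, the differences over time ran in opposite directions and had a median of -0.01 in knockdown liver, whose sign changed under 3 scalings, and of -0.02 in control liver. Coq8a, an atypical kinase of coenzyme Q synthesis, stood at 5.58 on KD 30 h and 5.90 on WT 30 h, against 8.12 on KD 0 h and 7.55 on WT 0 h. Its relative Coq8b ran the other way, with 6.42 on KD 30 h and 5.60 on WT 30 h, against 4.88 on KD 0 h and 4.96 on WT 0 h. Coq10b, a coenzyme Q binding protein, stood at 5.57 on KD 30 h and 5.93 on WT 30 h, against 4.04 on KD 0 h and 3.10 on WT 0 h. In all of these both 30 h arrays lay on the same side of both 0 h arrays.

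**Figure D5:**
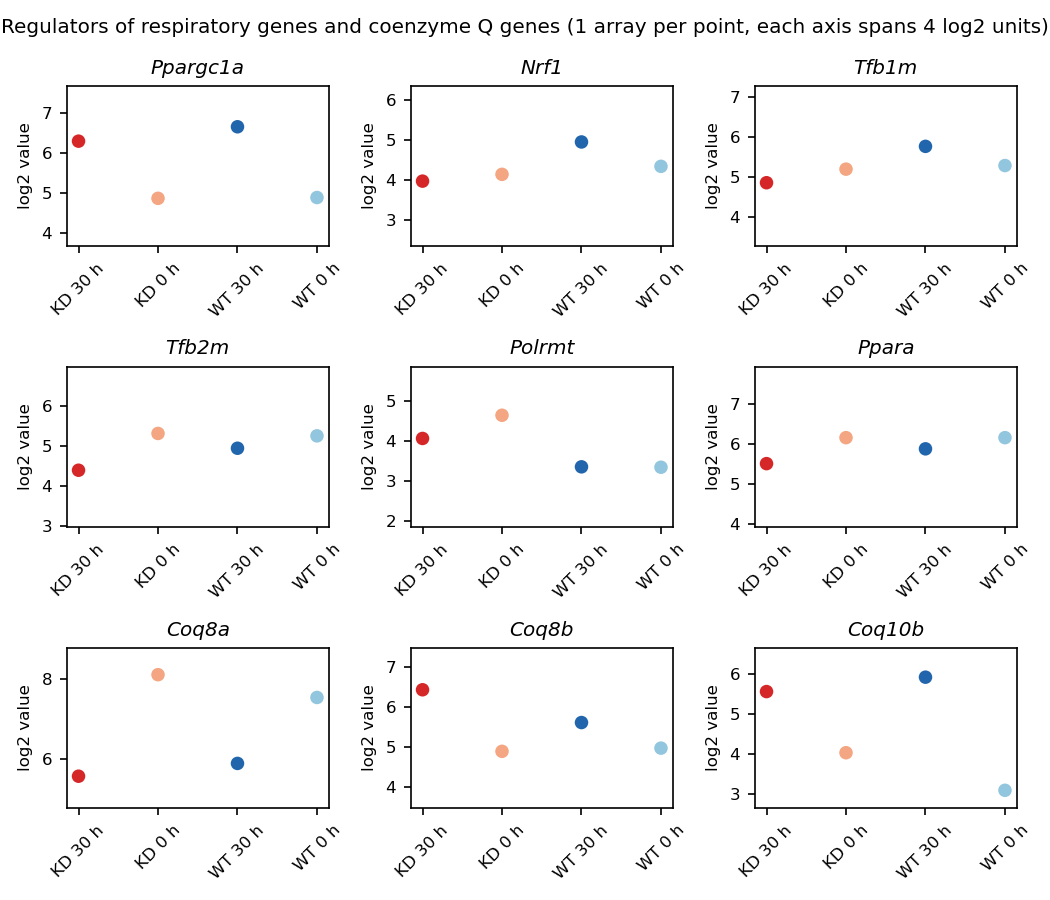
Log2 level of regulators of respiratory genes and of coenzyme Q genes on the KD 30 h, KD 0 h, WT 30 h and WT 0 h arrays. Ppargc1a and Coq10b are higher and Coq8a is lower on both 30 h arrays than on both 0 h arrays, and Polrmt is higher on both knockdown arrays than on both control arrays.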

How the data were processed

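Liver RNA of 4 groups was measured on 1 whole-transcript array each. The deposited values are log2 levels per probe set, which the authors made by RMA; the submitters' processing notes name this method and Affymetrix Expression Console. RMA is meant to equalise the arrays, which can hide any difference common to all genes. The deposited arrays were not fully equal. Their medians over all probe sets were 3.84 (KD 30 h), 3.79 (KD 0 h), 3.75 (WT 30 h) and 3.77 (WT 0 h). The RMA settings are not stated, and the genome build is not given in the sources used here. Of 22206 probe sets, 19572 had a gene symbol, and the brightest per gene was kept. Differences were computed with Python 3.11.15 and pandas 2.3.3, and cyclic loess with limma 3.58.1. The scripts were tested on simulated data.

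Members and lists were chosen with earlier results of these data known. Named genes were all of complex II, those with the widest differences in each complex, those past 1.5-fold, catalytic cores, paralogs, Mcu, and up to 3 per list. The alternatives were 4 scalings (arrays centred on all genes or on bright genes, quantile, cyclic loess), other filters on dim genes, a looser threshold (log2 difference of 0.32) and a stricter one of 2-fold, and leaving out tissue-restricted copies. Precision is limited by the number of arrays. The wording of 1 genotype label is not reported.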

Additional observations from a re-analysis of the deposited data

Results flagged for a closer look

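Among bright members whose 30 h minus 0 h differences had opposite signs in the 2 genotypes, 11 had responses at least 1.5-fold apart. With 1 array a group these differences between responses were not tested. Of these 11, 10 were lower at 30 h in knockdown liver and higher in control liver. Out of 79 bright members, these 10 are a smaller share than the 14.9% of all bright genes with that pattern. Most of these gaps fell short of 1.5-fold under other scalings: Ndufb3 kept it under 3 of 4, Ndufv2 and Sdhb under 2, and the other 7 under 1. The response of knockdown liver minus that of control liver was -0.80 for Ndufv2 and for Sdhb, -0.73 for Uqcrc1, -0.72 for Ndufb10 and for Ndufb3, -0.70 for Atp5pb, -0.69 for Ndufs1, -0.68 for Atp5a1, -0.66 for Uqcrfs1 and -0.59 for Cox5b. They belong to all 5 complexes and include catalytic or core subunits of complexes I, II, III and V. Cox6a2, the muscle copy of a complex IV subunit, had the opposite order with 1.08, a gap past 1.5-fold under all 4 other scalings. Of bright genes 7.54% had opposite responses of that order and size. The median over all bright members was -0.23, against -0.18 over bright genes, and became 0.02 with loess.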

How the results depend on the processing

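No paired analysis was possible because each group is 1 array of pooled RNA and the labels give no replicate numbers. Leaving out a replicate was likewise not possible. Centring on bright genes shifted differences by up to 0.18. Quantile and loess normalization shifted the median over bright genes by up to 0.15, and some members by more. The 30 h difference of Cox7a2 in control liver, 0.68 as deposited, was 0.3538 at its lowest under the other scalings. For control liver at 30 h against 0 h the median of 0.13 became 0.01 with centring on bright genes, -0.13 with quantile normalization and -0.10 with loess, and the 28 members below 0 became 39, 58 and 53. For knockdown against control at 30 h (-0.12, with 52 below 0) the medians were 0.01, 0 and 0.0259, and 36, 39 and 38 members were below 0. At 0 h (0.10, with 22 below 0) quantile normalization gave -0.0013 and 40, and loess gave -0.0134 and 42. The difference of responses (-0.23, with 57 below 0) became -0.05, -0.01 and 0.0244, with 45, 41 and 38 below 0. The median for knockdown liver at 30 h against 0 h kept its sign. Counts past the threshold changed as follows. For knockdown liver over time, 4 became 2 with centring on bright genes, 2 with quantile and 2 with loess, 0 at 2-fold and 19 at the looser threshold (log2 0.32). For control liver over time, 8 became 5 with centring on bright genes, 0 at 2-fold and 22 at the looser threshold. At 30 h, 3 became 1 with quantile and 1 with loess, 0 at 2-fold and 20 at the looser threshold. At 0 h, 1 became 2 without a filter on dim genes and with centring on bright genes, quantile or loess, 0 above percentile 75, at 2-fold or without tissue-restricted copies, and 10 at the looser threshold. For the difference of responses, 13 became 3 with centring on bright genes, 2 with quantile and 2 with loess, 1 at 2-fold and 33 at the looser threshold. The causes of the shifts between scalings were not tested. Of 225 medians of single complexes under the alternatives, 174 moved by at most 0.1. Dim values understate folds, and no detection call was used.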
